A study of Mus musculus with 8 samples.

Results

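Long interspersed nuclear elements (LINEs) were examined through the 275 L1, 36 L2, 8 CR1 and 2 RTE probes that the study's repeat annotation assigns to the LINE class, of 45281 probes on the Illumina WG-6 mouse array (version 2.0). A probe was included if the annotation names a LINE as the repeat under it in the mm9 mouse genome, in the sense orientation. Each probe is a 50-base oligonucleotide, and 292 lie in the repeat over all 50 bases, 22 over 49 and 7 over 48. The testes came from 4 Tex19.1-/- mice and 4 Tex19.1+/- littermate controls. All were males at 16 days post partum (dpp), and 1 array was hybridized for each animal. The paper describes the animals as C57BL/6, a background reached by only a few rounds of backcrossing. Its earlier work on the mutation used a mixed background. Whether donor genome remained in these animals, and differed between them, was not tested. The controls carry 1 intact Tex19.1 allele, and the labels give all 4 as heterozygous, so no wild-type animal entered the comparison. RNA was taken from the whole testis, so each value is an average over germ cells and somatic cells. For the same reason, fewer cells of a type and less RNA per cell cannot be told apart.

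LINEs are retrotransposons without long terminal repeats. A full-length LINE-1 (L1) transcript encodes an RNA-binding protein and a protein with endonuclease and reverse transcriptase activities, which copy the RNA back into the genome. In the mouse the L1Md_A, L1Md_T and L1Md_Gf types include copies that can still move. L1Md_F types are older, Lx elements expanded early in the murine lineage, and the L1M, L2, CR1 and RTE elements are remnants that mammals share. Germ cells hold L1 down through DNA methylation, histone methylation and piRNAs, small RNAs that guide PIWI proteins to transposon transcripts. Tex19.1 is a germ cell protein, and loss of its gene impairs spermatogenesis.

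The 8 CR1 probes were all annotated as L3 and both RTE probes as L4. The 275 L1 probes were divided by name into 74 L1Md probes, 42 probes of other mouse or rodent L1 (L1_Mus, L1_Mur, L1_Mm, L1_Rod, L1VL and MusHAL1), 107 Lx probes and 52 L1M probes. The annotation names 66 different elements in all. Among the L1Md probes, 28 were annotated as L1Md_F2, 15 each as L1Md_A and L1Md_T, 7 as L1Md_F, 6 as L1Md_F3 and 3 as L1Md_Gf. The platform annotation gave 1 gene symbol to 126 LINE probes (39.3%), against 77.0% of all probes on the array. The share with a symbol was unequal between groups, with 7 of 74 L1Md, 7 of 42 other mouse L1, 51 of 107 Lx, 29 of 52 L1M, 26 of 36 L2, 6 of 8 CR1 and 0 of 2 RTE probes. A probe with a symbol can read a gene transcript that contains the repeat, while a probe without one has no genomic position in the sources used here.

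L1Md probes overlapped each other in sequence across subfamily names. Of all LINE probes, 53 shared a word of at least 20 bases with another LINE probe, in 48 pairs and 20 sets. L1Md probes made up 43 of the 53, and 41 of the 48 pairs were within L1Md. The members of 31 pairs had different element names, so a subfamily name on such a probe marks the genomic copy under its best match. The paper cautions that short probes may not separate active from inactive L1 copies. It states that no L1 probe on its arrays matches the consensus monomers of the active Tf, Gf and A types. The clearest case is a set of 6 probes annotated as L1Md_T, L1Md_A or L1Md_F2 that cover the same L1 stretch, shown here because 3 young L1 probes detected in every animal are among them. Capitals mark bases that differ from ILMN_2537782 in an alignment without gaps, and positions are counted from 1 at the 5′ end of that probe.
ILMN_2537782 (L1Md_T): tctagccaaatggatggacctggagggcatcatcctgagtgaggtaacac
ILMN_1258452 (L1Md_T): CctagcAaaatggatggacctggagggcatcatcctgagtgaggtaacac
ILMN_1235173 (L1Md_A): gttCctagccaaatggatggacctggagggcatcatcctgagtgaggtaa
ILMN_1241612 (L1Md_F2): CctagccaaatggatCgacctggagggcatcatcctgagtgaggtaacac
ILMN_1239725 (L1Md_F2): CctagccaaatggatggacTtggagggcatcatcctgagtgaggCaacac
ILMN_1214026 (L1Md_F2): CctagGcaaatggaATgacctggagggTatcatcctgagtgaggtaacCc
The L1Md_A probe differs from ILMN_2537782 at 1 of 47 aligned bases (T1C), and the second L1Md_T probe at 2 of 50 (T1C and C7A). ILMN_1241612 also differs at 2 bases (T1C and G16C), ILMN_1239725 at 3 (T1C, C20T and T45C) and ILMN_1214026 at 6 (T1C, C6G, T15A, G16T, C28T and A49C). The first 4 probes were detected in all 8 arrays, ILMN_1239725 in 2 of 4 Tex19.1-/- and 1 of 4 control arrays, and ILMN_1214026 in 1 of 4 arrays of each genotype.

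A pair of smaller sets is shown because they hold the only detected L1Md_Gf probe and a further L1Md_A probe detected in every animal. The first joins the L1Md_Gf probe to an L1Md_F and an L1_Mus1 probe, with capitals for bases that differ from the L1Md_Gf probe.
ILMN_2538531 (L1Md_Gf): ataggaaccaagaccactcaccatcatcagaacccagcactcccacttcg
ILMN_1223966 (L1Md_F): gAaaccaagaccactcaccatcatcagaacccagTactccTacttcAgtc
ILMN_1218079 (L1_Mus1): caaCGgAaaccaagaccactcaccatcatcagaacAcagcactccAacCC
ILMN_1223966 differs from the L1Md_Gf probe at 4 of 47 aligned bases and ILMN_1218079 at 7 of 48. The second joins an L1Md_F probe to 2 L1Md_A probes, and capitals mark differences from the L1Md_F probe.
ILMN_1244099 (L1Md_F): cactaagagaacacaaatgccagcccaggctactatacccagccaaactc
ILMN_1232093 (L1Md_A): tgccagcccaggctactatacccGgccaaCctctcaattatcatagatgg
ILMN_1252687 (L1Md_A): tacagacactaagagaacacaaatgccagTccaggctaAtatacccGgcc
ILMN_1232093 differs from the L1Md_F probe at 2 of 33 aligned bases and ILMN_1252687 at 3 of 44. ILMN_1252687 was detected in no array. The median GC content was 50% for L1Md, 52% for other mouse L1 and Lx, 50% for L1M and 54% for L2 probes, so the groups were close in base composition.

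The labels were checked on the Tex19.1 probe (ILMN_2615917), which was detected in 0 of 4 Tex19.1-/- and 4 of 4 control arrays, at least 4.32-fold lower in Tex19.1-/- testes (adjusted p = 6.3e-07, limma). Its position relative to the deletion was not determined here. Array-wide, 13720 to 14668 probes were detected (detection p under 0.01) per Tex19.1-/- array and 14152 to 15876 per control array. The mean background-subtracted signal was 79.0 to 126 in Tex19.1-/- arrays and 90.8 to 159 in control arrays. Markers of mid to late pachytene spermatocytes were lower in the Tex19.1-/- testes. Of 9 such genes 8 were measured and 5 were called lower, with a mean log2 level of 7.25 to 8.24 in Tex19.1-/- animals and 9.19 to 9.96 in controls. Of 10 meiotic prophase genes 6 were measured and 1 was called lower, and of 5 spermatid markers 0 were measured. The germ cell, spermatogonial, Sertoli, Leydig, macrophage, myoid and endothelial lists held 0 called genes at an adjusted p of at most 0.01. Genes measured were 3 of 4 germ cell, 4 of 7 spermatogonial, 4 of 8 Sertoli and 4 of 5 Leydig genes. For the macrophage, myoid and endothelial lists they were 2 of 4, 2 of 2 and 3 of 3. Over all detected probes 0.141% were called higher and 1.63% lower. With the replicate number as a block, Ccnd2, a cyclin on the spermatogonial list, was also called, higher in Tex19.1-/- testes (change 0.659, adjusted p = 0.0027, against 0.26 without the block). The part of these markers in the LINE values was not tested.

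Signal at some LINE probes was detected in all testes, but for most LINE probes no signal above background was found. Of the LINE probes, 95 (29.6%) were detected in at least 1 array, against 19089 of 45281 (42.2%) for the whole array. LINE probes detected per array numbered 64, 54, 55 and 58 in Tex19.1-/- animals 1 to 4, against 74, 66, 67 and 53 in controls 1 to 4. The genotypes overlapped in this count. Of the 95 detected LINE probes, 44 were detected in all 8 arrays and 17 in a single array. A gene symbol was carried by 47 of the 95 and by 23 of the 44.

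Detection was unequal between LINE groups. L2 probes were detected most often, with 23 of 36 detected in at least 1 array and 18 in all 8. The figures were 22 of 74 and 13 for L1Md, 15 of 42 and 5 for other mouse L1, 22 of 107 and 5 for Lx, 12 of 52 and 2 for L1M, 1 of 8 and 1 for CR1, and 0 of 2 for RTE. Within L1Md, 11 of 28 L1Md_F2, 5 of 15 L1Md_T, 3 of 15 L1Md_A, 2 of 7 L1Md_F and 1 of 3 L1Md_Gf probes were detected, and 0 of 6 L1Md_F3 probes were. All 4 L1_Mus1 and 2 of 3 L1_Mm probes were detected at least once. Among Lx elements, Lx8 had 8 of 28, Lx9 4 of 15 and Lx7 3 of 15, and 0 of 6 were detected for each of Lx, Lx2B and Lx6. Among L2 elements, L2c had 12 of 17, L2a 5 of 9, L2b 4 of 7 and L2 2 of 3. A gene symbol went with detection in the Lx, L1M and L2 groups. With a symbol, 15 of 51 Lx, 9 of 29 L1M and 18 of 26 L2 probes were detected, against 7 of 56 Lx, 3 of 23 L1M and 5 of 10 L2 probes without. For L1Md it was 2 of 7 with a symbol and 20 of 67 without. These shares are descriptions with no test, since probes to 1 element or gene are not independent.

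No LINE probe was detected in every animal of 1 genotype and in no animal of the other. Of the 95 probes, 72 were detected in at least 1 animal of each genotype, 6 only in Tex19.1-/- animals and 17 only in controls. The shares were 6.32% and 17.9%, beside 6.36% and 11.4% of all detected probes. Lx probes made up 2 of the 6 and 8 of the 17, and 9 of the 22 Lx probes were detected in a single array. For the 23 probes detected in 1 genotype only, the limit on the fold was under 1 for 21 and at most 1.02 for the other 2. ILMN_2538519, an L1Md_T probe detected in 0 of 4 Tex19.1-/- and 3 of 4 control arrays, had a limit of 1.02, lower in Tex19.1-/- testes. The limit carries no error and does not establish a fall. The test was run on the change without the limit, -0.18 (adjusted p = 0.43, limma). The log2 levels of ILMN_2538519 were 5.93, 5.96, 5.73 and 5.87 in Tex19.1-/- animals, against 6.05, 6.03, 6.12 and 6.02 in controls.

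The question of whether signal at LINE probes changes without Tex19.1 was put to each of the 95 detected probes. Levels are log2 values from the authors' quantile-normalized table, changes are Tex19.1-/- minus control, and p-values were adjusted over all 19089 detected probes. With limma no LINE probe was called at an adjusted p of at most 0.01 in either direction, and the smallest adjusted p was 0.16. Over all detected probes the share called was 0.141% higher and 1.63% lower. At an unadjusted p under 0.05, 5 LINE probes were higher and 1 was lower, beside 5.88% and 7.93% of all detected probes. The 5 higher LINE probes are 5.26% of the 95 and the lower one 1.05%. With the replicate number as a block, 9 were higher and 1 lower (9.47% and 1.05%, beside 8.75% and 9.57% of all detected probes), and 0 were called, with a smallest adjusted p of 0.05. Without control 2 the count higher was 3 (3.23%, beside 6.22% of all probes then tested). It was 9 without Tex19.1-/- animal 2 (9.47%, beside 6.13%) and 8 without control 3 (8.7%, beside 5.86%). Every Tex19.1-/- animal lay above every control for 5 LINE probes and below every control for 3, where 4.18% and 6.06% of all detected probes did so. The largest change in size was 0.37, a 1.29-fold difference. The median change over the 95 was 0.0366 and 56 were above 0 (58.9%), against a median of 0.0237 and 56.1% over all detected probes.

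For comparison, 6 of 123 detected probes for elements with long terminal repeats were called higher and 3 lower on the same arrays, with changes of -0.90 to 1.96. The median change over the 123 was 0.00353, with 51.2% above 0. In the paper, every repeat probe past its fold and p limits came from 1 such element, MMERVK10C. Of 236 detected SINE probes, 0 were called higher and 1 lower. The replicate block gave 8 higher and 4 lower for the first class and 0 higher and 2 lower for SINEs. LINE probes covered the narrower range of -0.25 to 0.37, and the difference between the classes was not tested.

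Of the probes annotated as young L1 types (L1Md_A, L1Md_T and L1Md_Gf), 6 were detected in all 8 arrays, and 1 of the 6 separated the genotypes. Over all 11565 probes detected in every array, every Tex19.1-/- animal lay above every control at 673 and below at 728. At ILMN_1235173, the L1Md_A probe of the 6-probe set, levels were 8.18, 8.13, 8.23 and 8.17 in Tex19.1-/- animals, against 8.07, 7.69, 7.94 and 7.87 in controls. All 4 Tex19.1-/- animals lay above all 4 controls, by 0.29 ± 0.10 (SE) on average, a 1.22-fold difference that did not pass the adjusted test (unadjusted p = 0.016, adjusted p = 0.20, limma). The L1Md_T probes of the same set overlapped between genotypes. ILMN_2537782, which differs from ILMN_1235173 at 1 of 47 aligned bases, read 8.10, 7.90, 7.95 and 7.98 in Tex19.1-/- animals, against 8.06, 7.47, 8.02 and 7.74 in controls (change 0.16 ± 0.13, adjusted p = 0.65). ILMN_1258452 read 8.13, 7.73, 7.95 and 8.44 in Tex19.1-/- animals, against 8.06, 7.48, 8.03 and 7.87 in controls (change 0.20 ± 0.16, adjusted p = 0.64). Control 2 was the lowest control at each of these probes, and without it the changes were 0.217 at ILMN_1235173, 0.0416 at ILMN_2537782 and 0.0732 at ILMN_1258452. For the L1Md_F2 probe ILMN_1241612 levels were 7.23, 6.99, 6.86 and 7.17 in Tex19.1-/- animals, against 6.92, 6.64, 7.01 and 6.63 in controls (change 0.26 ± 0.12, adjusted p = 0.37). The changes at ILMN_1239725 and ILMN_1214026, detected in few arrays, were -0.000953 and 0.15.

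The widest spread was at the L1Md_Gf probe. ILMN_2538531 read 8.23, 7.01, 8.01 and 8.32 in Tex19.1-/- animals, against 7.69, 6.78, 8.25 and 7.91 in controls. The animals numbered 2 were lowest in both genotypes, and the change of 0.23 ± 0.31 was smaller than its error (adjusted p = 0.80, limma). The same animals were lowest at the L1Md_T probe ILMN_2538242, with 7.13, 6.27, 7.48 and 7.28 in Tex19.1-/- animals, against 6.70, 6.16, 7.30 and 7.08 in controls (change 0.23 ± 0.26). They were also lowest at the L1Md_A probe ILMN_1232093, with 7.41, 6.58, 7.27 and 7.60 in Tex19.1-/- animals, against 6.90, 6.44, 7.29 and 7.06 in controls (change 0.29 ± 0.21, adjusted p = 0.61). A further such probe was ILMN_1259069 (L1Md_F2), with 7.72, 6.94, 7.75 and 7.72 in Tex19.1-/- animals, against 7.31, 6.49, 7.60 and 7.60 in controls. Thus 4 probes, annotated as L1Md_Gf, L1Md_T, L1Md_A and L1Md_F2, shared their lowest animals. Without control 2 the changes were -0.0597 at ILMN_2538531, 0.0142 at ILMN_2538242 and 0.125 at ILMN_1232093. At ILMN_1244099 (L1Md_F) this held for control 2 alone, with 8.71, 8.59, 8.57 and 8.56 in Tex19.1-/- animals, against 8.44, 8.11, 8.87 and 8.31 in controls.

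Over the 13 L1Md probes detected in all 8 arrays, control 2 was the lowest control at 12 and Tex19.1-/- animal 2 the lowest of its genotype at 7, and both held at the same 7 probes. Over all 11565 probes detected in every array the corresponding shares were 25.3%, 30.1% and 14.1%. Of the 5 other mouse L1 probes detected in every array, control 2 was lowest at 4 and Tex19.1-/- animal 2 at 3, both at the same 3, while for the 18 such L2 probes the counts were 8, 4 and 2. The probes share sequence and arrays, so the counts are descriptions. The median range between the 4 animals at these 13 probes was 0.288 in Tex19.1-/- testes and 0.590 in controls, against 0.313 and 0.372 for all probes detected in every array. For the 5 other mouse L1 probes it was 0.377 in Tex19.1-/- testes and 0.587 in controls. Changes at the 13 probes ran between -0.03 and 0.29, with 12 above 0 and a median of 0.201, beside a median of 0.0477 and 60.9% above 0 for all such probes. The 9 L1Md probes detected in fewer arrays had changes between -0.21 and 0.19, with 3 above 0 and a median of -0.0514. For all detected probes not detected in all 8 arrays the median was -0.00495, with 48.6% above 0. Of these 9 L1Md probes, 4 passed the filter only through controls and 1 only through Tex19.1-/- animals.

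Per animal, the mean log2 level over the 22 detected L1Md probes was 6.89, 6.63, 6.80 and 6.85 in Tex19.1-/- animals 1 to 4, against 6.81, 6.44, 6.84 and 6.70 in controls 1 to 4. The genotypes overlapped, with 6.79 ± 0.115 (SD, n = 4) in Tex19.1-/- testes and 6.70 ± 0.179 (SD, n = 4) in controls. Taken by replicate number the differences were 0.0888, 0.187, -0.0377 and 0.149. The mean difference of 0.0967 was 0.0124 without control 2, 0.151 without Tex19.1-/- animal 2, 0.148 without control 1 and 0.159 without control 3. The remaining young L1 probes were close to the background. The L1Md_A probe ILMN_2881810 and the L1Md_T probe ILMN_2538301 were each detected in 0 of 4 Tex19.1-/- and 1 of 4 control arrays, with changes of -0.18 and -0.21. Both L1_Mm probes (ILMN_1222715 and ILMN_2583102), grouped with other mouse L1, were also close to the background. They were detected in 1 of 4 arrays of each genotype, with changes of 0.13 and 0.14.

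The mean levels over all detected Lx, L1M and other mouse L1 probes overlapped between genotypes. The mean over 22 Lx probes was 6.43, 6.47, 6.39 and 6.50 in Tex19.1-/- animals, against 6.46, 6.50, 6.45 and 6.44 in controls. Over the 5 Lx probes detected in all 8 arrays the genotypes did not overlap, with 8.45, 8.53, 8.40 and 8.48 in Tex19.1-/- animals, against 8.28, 8.37, 8.33 and 8.35 in controls (mean difference 0.133). All 5 carry a gene symbol, so they can read a gene transcript that contains the repeat. Their median change was 0.161 and all were above 0, beside 0.0477 and 60.9% for all probes detected in every array. The mean over 15 other mouse L1 probes was 6.48, 6.32, 6.47 and 6.43 in Tex19.1-/- animals, against 6.48, 6.27, 6.48 and 6.36 in controls. For 12 L1M probes it was 6.12, 6.10, 6.13 and 6.07 in Tex19.1-/- animals, against 6.13, 6.08, 6.16 and 6.05 in controls. The mean differences were -0.0144 for Lx, 0.0237 for other mouse L1 and -0.000375 for L1M. The signs of all 3 depend on the scaling, since median scaling gave 0.057 for Lx and 0.0527 for L1M, and cyclic loess -0.00508 for other mouse L1. Changes of single probes ran between -0.21 and 0.19 for Lx, -0.12 and 0.16 for other mouse L1, and -0.16 and 0.23 for L1M, with smallest adjusted p-values of 0.37, 0.61 and 0.44. The Lx3A probe ILMN_2562789, detected in 0 of 4 Tex19.1-/- and 1 of 4 control arrays, had the lowest of these changes. Every Tex19.1-/- animal lay below every control at this probe, as at 6.06% of all detected probes. Its values are close to the background and the limit on its fold was under 1, so no fold is given.

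Several of the brightest LINE probes carry a gene symbol. The Lx2 probe ILMN_2871881 carries the symbol Uqcr11 (chromosome 10), a subunit of mitochondrial complex III, and read 10.98, 11.08, 10.54 and 10.81 in Tex19.1-/- animals, against 10.82, 10.90, 10.83 and 10.63 in controls. The Lx3C probe ILMN_3091288 carries the symbol Tpd52 (chromosome 3) and read 10.81, 10.85, 10.93 and 10.92 in Tex19.1-/- animals, against 10.77, 10.67, 10.71 and 10.64 in controls. At this probe every Tex19.1-/- animal was above every control, by 0.18 ± 0.0909 (SE), which did not pass the test (adjusted p = 0.40, limma). ILMN_2681030, annotated as L1_Mur2 and also picked for its level, has no symbol.
ILMN_2681030 (L1_Mur2): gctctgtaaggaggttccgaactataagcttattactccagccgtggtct
Its levels were 11.36, 11.28, 10.98 and 11.18 in Tex19.1-/- animals, against 11.56, 11.28, 11.02 and 10.74 in controls, and the change of 0.0484 ± 0.16 was within its error. Levels of different probes depend on each probe's own hybridization and are not compared here.

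Of the 23 detected L2 probes 18 carry a gene symbol. From here on, a probe given as in a gene carries that gene's symbol, and its position was not checked. The mean over the 23 was 7.31, 7.25, 7.30 and 7.31 in Tex19.1-/- animals, against 7.23, 7.19, 7.23 and 7.24 in controls. The genotypes did not overlap, with 7.29 ± 0.0283 (SD, n = 4) in Tex19.1-/- testes and 7.22 ± 0.0208 (SD, n = 4) in controls. The difference was 0.0654, and by replicate number it was 0.0734, 0.0542, 0.0662 and 0.0679. Over all detected probes the same mean differed by -0.0065. Leaving out any 1 animal gave 0.0553 to 0.0793 for L2, while median scaling, which moved the median of all probes by 0.116, gave 0.218. The value has no p, since the probes were grouped with earlier results of these arrays known. Of the 23 probes 17 had a change above 0 and 6 below, between -0.25 and 0.37, with a median of 0.0951, against 0.0237 over all detected probes. Of the 18 detected in all 8 arrays 15 were above 0, with a median of 0.105, beside 0.0477 and 60.9% for all such probes.

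Single L2 and CR1 probes gave 5 of the 6 LINE changes with an unadjusted p under 0.05. The L2c probe ILMN_2634083 in Cdkn1a (chromosome 17), which encodes the cell cycle inhibitor p21, read 7.17, 7.18, 7.64 and 7.54 in Tex19.1-/- animals, against 6.79, 6.69, 7.20 and 7.37 in controls. The genotypes overlapped, and the change of 0.37 ± 0.16 (SE) had an adjusted p of 0.32 by limma, or 0.05 with the replicate block. The L3 probe ILMN_3107467 (CR1 family) in Fndc5 (chromosome 4), the precursor of irisin, read 7.95, 8.21, 7.96 and 7.89 in Tex19.1-/- animals, against 7.70, 7.62, 7.89 and 7.46 in controls. Its change was 0.33 ± 0.12 (adjusted p = 0.18), with Tex19.1-/- animal 4 level with control 3. The L2b probe ILMN_3001481 in Chrnb1 (chromosome 11), a subunit of the muscle acetylcholine receptor, read 6.86, 6.71, 6.92 and 6.65 in Tex19.1-/- animals, against 6.39, 6.35, 6.55 and 6.59 in controls. All Tex19.1-/- animals were above all controls there, with a change of 0.31 ± 0.10 (unadjusted p = 0.0099, adjusted p = 0.16). The L2c probe ILMN_2692306 has no symbol.
ILMN_2692306 (L2c): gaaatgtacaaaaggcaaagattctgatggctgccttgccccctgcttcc
It read 7.26, 7.27, 7.43 and 7.40 in Tex19.1-/- animals, against 6.96, 7.02, 7.09 and 7.22 in controls, again without overlap (change 0.27 ± 0.10, adjusted p = 0.22). The L2a probe ILMN_2470764 in Ttll11 (chromosome 2), which encodes a tubulin polyglutamylase, was the only one of the 6 that was lower. It read 6.22, 6.18, 6.40 and 6.37 in Tex19.1-/- animals, against 6.50, 6.69, 6.45 and 6.53 in controls (change -0.25 ± 0.10, adjusted p = 0.26).

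The L2 probes picked for their level changed little. ILMN_2698843 in Dcakd (chromosome 11) averaged 10.98 ± 0.0687 in Tex19.1-/- testes and 10.85 ± 0.161 in controls (SD, n = 4 each). ILMN_2731550 in Pnkd (chromosome 1) averaged 10.68 ± 0.135 in Tex19.1-/- testes and 10.49 ± 0.294 in controls. ILMN_1257135 in Tex261 (chromosome 6) averaged 9.48 ± 0.0557 in Tex19.1-/- testes and 9.47 ± 0.23 in controls. The genotypes overlapped at all 3, with adjusted p-values of 0.64, 0.61 and 0.98. The same held for ILMN_1222637 in Anp32a, ILMN_2649654 in Mrm1 and ILMN_2653936 without a symbol, with changes of 0.12, 0.0699 and 0.11.

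LINE probes with a gene symbol were set beside partners, other probes of the same gene that are absent from the study's annotation of sense repeat probes. Probes antisense to a repeat are not listed there, so partners can include them. Of 47 detected LINE probes with a symbol, in 46 genes, 21 had at least 1 such partner, with 39 partners in all. The change had the same sign in 22 of the 39 pairs, and 0 of the 39 partners were called at an adjusted p of at most 0.01. The LINE probe had the larger change in size in 17 pairs and the partner in 22. The next 3 genes are described because their LINE probe had an unadjusted p under 0.05. At Fndc5 the L3 probe changed by 0.33, while the partners changed by -0.0105, -0.0346 and 0.0961. At Chrnb1 the L2b probe changed by 0.31 and the partner by 0.0115. At Cdkn1a the L2c probe changed by 0.37, while the partners, detected in 5 and 1 of the 8 arrays, changed by 0.0614 and 0.17. The difference between probes was not tested. At Pnkd the order was the reverse, with 0.19 for the L2c probe and 0.339 ± 0.224 (SE) for its partner.

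Genes known to restrain L1, with Ubr2 and Tex19.2 added, were counted on the same arrays. The first cover the piRNA pathway, DNA methylation, chromatin silencing and cytoplasmic restriction factors. The list holds 39 symbols, of which Fam208a and Tasor name 1 gene, not on the array. Of the list, 27 genes were detected at probes outside the annotation of sense repeat probes. Of the 27, 0 were called higher and 1 lower, beside 0.141% and 1.63% of all detected probes. At an unadjusted p under 0.05, 1 was higher and 8 were lower, beside 5.88% and 7.93%. The gene called was Tdrd5, a tudor protein of the piRNA pathway, at 8.04 ± 0.283 in Tex19.1-/- testes and 9.24 ± 0.453 in controls (SD, n = 4 each; change -1.19, adjusted p = 0.004, limma). The next by test statistic did not pass. Tdrd1, a tudor protein that binds PIWI proteins, changed by -0.436 (adjusted p = 0.037), Tdrd12 by -0.519 (adjusted p = 0.10) and the germ cell helicase Ddx4 by -0.328 (adjusted p = 0.15). With the replicate block Piwil2, a PIWI protein of the piRNA pathway, was called lower as well (change -1.21, adjusted p = 0.0098 by limma, against 0.22 without the block). The median change over the 27 was -0.0766, against 0.0237 over all detected probes. Tdrd5, Tdrd1, Tdrd12 and Ddx4 are germ cell genes. The pachytene markers given above were lower in the same animals, and their part in these values was not tested. Tex19.2, the paralogue of Tex19.1, averaged 10.64 ± 0.0782 in Tex19.1-/- testes and 10.66 ± 0.127 in controls.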

How the data were processed

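RNA from 16 dpp testes of 4 Tex19.1-/- and 4 Tex19.1+/- animals was profiled on Illumina WG-6 mouse arrays (version 2.0), 1 for each animal. The deposited intensity of each probe is a linear signal that the authors background-subtracted with BeadStudio, whose version is not given in the sources used here, and the authors deposited a detection p-value beside it for each probe and array. A further deposited table holds log2 values that the authors quantile-normalized in lumi, which was recomputed from the signals to within 5.151e-14 and was used as the main values. Quantile normalization gives all arrays 1 distribution, so a shift shared by most probes is removed. The number of arrays limits the precision, and no read depth applies.

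LINE probes and their sequences were taken from a copy of the study's repeat annotation of the array, which holds 1430 repeat probes. The authors had aligned probes to mm9 and required at least 48 bases inside a repeat. Names and chromosomes of genes come from the platform annotation, updated from RefSeq (GRCm38.p6), and probe coordinates were not used here. A gene with several probes is represented by its kept probe of highest mean level.

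A probe was kept if any array gave it a detection p below 0.01. limma 3.58.1 (R 4.3.3; lmFit, eBayes) compared the genotypes without a block on all 19089 kept probes, with Benjamini-Hochberg adjustment and a call at an adjusted p of at most 0.01. For a probe detected in no array of a genotype the fold is a limit, set by raising its value in each array to the lowest detected value there, if that is higher, before averaging. Alternatives were other normalizations, background handling and filters, the replicate block and leaving out each animal.

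Replicate numbers 1 to 4 occur in both genotypes. The deviations from genotype means correlated at 0.2148, 0.5238, 0.1032 and 0.2261 between same-numbered animals, each over 0.1, which met the limit set for pairing by number. The printed tests are unpaired unless the block is named, as planned. No label states a pairing, and Tex19.1-/- animals 3 and 4 correlated more with controls 4 and 3 (0.4473 and 0.2298).

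The members, groups and gene lists were chosen with earlier results of these data known. Probes are named if their unadjusted p is under 0.05, if they are among the 10 of highest level or the 5 of largest change, among the highest 3 of L2, CR1 and RTE, or if annotated as L1Md_A, L1Md_T, L1Md_Gf or L1_Mm. Of the gene list, the 4 with the largest moderated t are named. The other probes in the sequence sets, ILMN_1259069, the genes compared with partner probes, Piwil2, Ccnd2, ILMN_2562789 and Tex19.2 were singled out after their values were seen.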

Additional observations from a re-analysis of the deposited data

Results flagged for a closer look

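At the L1Md_F probe ILMN_1244099, Tex19.1-/- animal 1 stood apart from the other animals of its genotype, at a log2 level of 8.71 against 8.56 to 8.59. The gap is 0.856 of the group's range, above Dixon's critical value for 4 samples. It was the only such value among 62 groups of 4 examined, and chance flags about 1 in 20 groups.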

How the results depend on the processing

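No LINE probe was called at an adjusted p of at most 0.01 under any alternative tried, in either direction. The count of LINE probes higher at an unadjusted p under 0.05 was 5. It was 13 with no detection filter (4.05% of the LINE probes then tested, beside 4.12% of all probes) and 9 with the replicate block (9.47%, beside 8.75%). When 1 animal was left out it was 3 to 9 (3.23% to 9.47%, beside 4.29% to 6.22% of all probes). The count lower was 1. It was 0 with median scaling (beside 2.66% of all probes) and 6 with signals under 0 set to 0 (6.32%, beside 7.55%). It was 4 with normexp background correction (4.21%, beside 7.74%) and 3 with no detection filter (0.935%, beside 4.71%). When 1 animal was left out it was 0 to 3 (0 to 3.26%, beside 6.78% to 8.37%). The median change over LINE probes of 0.0366 was 0.0997 with median scaling, 0.0839 with signals under 0 set to 0 and 0.117 over probes detected in all 4 arrays of a genotype. Median scaling also gave 0.057, 0.0527, 0.218 and 0.565 for the mean differences of Lx, L1M, L2 and CR1, and signals under 0 set to 0 gave -0.242 for Lx and -0.142 for L1M. Stricter detection gave 0.0635 for Lx, the probes without a symbol gave 0.0819 for L1M and 0.12 for L2, and no filter gave -0.00405 for CR1, with 8 probes in place of 1. Of the named probes, ILMN_1257135 changed sign with cyclic loess (-0.0172). When 1 animal was left out, the lowest and highest changes were -0.0755 and 0.103 for ILMN_1257135, -0.0597 and 0.527 for ILMN_2538531, -0.00648 and 0.219 for ILMN_2653936, -0.0873 and 0.185 for ILMN_2681030 and -0.0142 and 0.167 for ILMN_2871881. Leaving out both animals numbered 2, chosen after seeing the data, gave 3 LINE probes higher (3.23%, beside 5.98% of all probes) and a mean L1Md difference of 0.0667. The cause of these differences was not tested. The mean L1Md difference of 0.0967 was 0.207 with median scaling, 0.0117 with signals under 0 set to 0 and 0.17 with stricter detection. The replicate block changed no call of a LINE probe, and over all probes it gave 48 higher and 470 lower, in place of 27 and 311. It also added 1 call each to the L1 control and spermatogonial lists and changed no call of the other gene lists. At a probe not above background in any array, a fall cannot be seen.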
